A study of Mus musculus with 8 samples.

Results

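The receptors of bone morphogenetic protein (BMP) and TGF-β, and the Smads that carry their signal to the nucleus, were followed in single endocardium cells of the mouse embryo at E8.5. The genes were *Bmpr1a*, *Bmpr2*, *Acvrl1*, *Eng*, *Tgfbr1*, *Tgfbr2*, *Smad1*, *Smad4*, *Smad5* and *Smad6*. Every probe that carried one of these 10 gene names was taken, which gave 16 of the 55681 probes on the array. Of the genes, 5 had 1 probe and 5 had several.

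The arrays held 1 cell each, from 4 WT cells (Mesp1+/+ Sox17flox/flox) and 4 *Sox17* KO cells (Mesp1Cre/+ Sox17flox/flox) of embryos with 9 somites. Both genotypes carried floxed *Sox17* on both chromosomes. KO embryos also carried a Cre allele at *Mesp1* that WT embryos lacked, so that its presence and the deletion of *Sox17* cannot be told apart, and Cre from *Mesp1* acts in early mesoderm as a whole and not in the endocardium alone. The question was how the loss of *Sox17* in mesoderm alters the endocardium before the heart looks abnormal. Embryos were genotyped from their tails, no source names the embryo of each cell, and cell types were identified by PCR of marker genes, where the methods name the ventricle as the source and the labels the heart tube. Each genotype was therefore 1 sample, cells were not replicates, and no test was made. Differences are means of log2 signal in KO minus WT cells, with the standard deviation (SD) between cells pooled over both genotypes.

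BMP and TGF-β ligands bind a complex of type I and type II receptor kinases. The type I receptor then phosphorylates receptor Smads, *Smad1* and *Smad5* for BMP and *Smad2* and *Smad3* for TGF-β, which enter the nucleus with *Smad4*. *Smad6* and *Smad7* oppose the signal, and *Smad6* is itself a target gene of BMP. In endothelium, *Acvrl1* (ALK1) and the coreceptor endoglin (*Eng*) form a branch of the BMP pathway, and BMP and TGF-β from the myocardium drive the later transformation of endocardium into cushion mesenchyme.

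All values were read through 60-base probes, so that a gene was seen only where its probe lay. The probes of the genes that differed most, and of a gene whose probes disagreed, are given below by their first 30 bases, 5′ to 3′, as the array files list them. Coordinates are those of mm9.
*Smad6* (A_55_P2129658, minus strand, chr9:63800980-63801039): cttttttaaagagaattatacagtagaact
*Tgfbr2* (A_51_P450573, minus strand, chr9:115997155-115997214): tctagcggggaatttacagaatgctggtcc
*Tgfbr2* (A_55_P2107288, minus strand, chr9:115999496-115999555): gggaggagctgctcccaggagaagattcca
*Eng* (A_55_P2040936, plus strand, chr2:32537268-32537327): tacagaactgcccaatccaggggctctggg
*Acvrl1* (A_55_P2011380, plus strand, chr15:100974010-100974069): tgtgcctgctcagcttggctcccagcccat
The pair of *Tgfbr2* probes starts 2341 bases apart. Of these probes that of *Smad6* had a GC content of 35.0%, and that of *Eng* of 55.0%.

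All 8 arrays came from 1 slide and 1 scan, and no column of the slide held both genotypes, so that genotype and place on the slide cannot be told apart. A probe is called well above background in a cell by the scanner software's own flag. Between 11370 and 18175 probes were well above background on an array, the fewest in WT cell 1, the only cell whose array was marked by the scanner software as one to evaluate. Signals were scaled between arrays, values under 50 were set to 50 (5.64 on the log2 scale, the floor), and cells at this floor cannot be ordered. *Sox17* itself was well above background in no cell at either of its probes, so that the deleted gene gives no check of the genotypes on these arrays. Of 10 endothelial or endocardial markers 6 to 10 were detected per cell, with *Cdh5* and *Kdr* above the floor in all 8. *Pecam1* and *Sox18* were also detected in all 8, but under the floor in WT cell 2. *Npr3* was detected in 3 WT cells and no KO cell, and *Emcn* in WT cell 4 and all KO cells, under the floor in KO cell 4. *Emcn* was the 1 endothelial marker at least 5-fold apart, with a difference of 4.07 (SD 2.58) and with overlap. *Nfatc1* was not detected in KO cell 1, and *Tek* not in KO cells 1 and 4. *Tie1* was not detected in WT cell 1, and *Sox7* not in cell 1 of either genotype. Of 9 cardiomyocyte markers 3 to 8 were detected in each cell, none of 5 endoderm markers in any and at most 1 of 5 blood markers in a cell, all of the latter under the floor. Of 3 smooth muscle markers *Acta2* and *Tagln* were detected in all 8 cells and *Cnn1* in none. *Acta2* was at 13.8 in WT cell 2 and 12.86 in KO cell 4, and at most 6.15 in the other cells.

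By the same call 52 of the 128 pairs of a probe and a cell were detected, 30 of 64 in WT cells and 22 of 64 in KO cells. This was 46.9% and 34.4% of pairs, against 27.2% in each genotype over all probes. By the software's looser call, a signal positive and significant over background, 39 pairs were detected in WT cells and 40 in KO cells. The excess of WT over KO cells thus depended on the call. The share over all probes was not taken for the looser call, so that the members cannot be set against the array there. The number of the 10 genes detected was 4, 8, 7 and 8 in WT cells 1 to 4. It was 5, 6, 5 and 5 in KO cells 1 to 4. WT cell 1 had the fewest, and the ranges of the genotypes overlapped. *Acvrl1* and *Eng* were detected in all 8 cells, *Bmpr2* in none, and the other 7 genes in some cells of at least 1 genotype. The share of single-cell transcripts lost in amplification is not known, so that a gene not detected in a cell cannot be called absent from it.

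**Figure D1:**
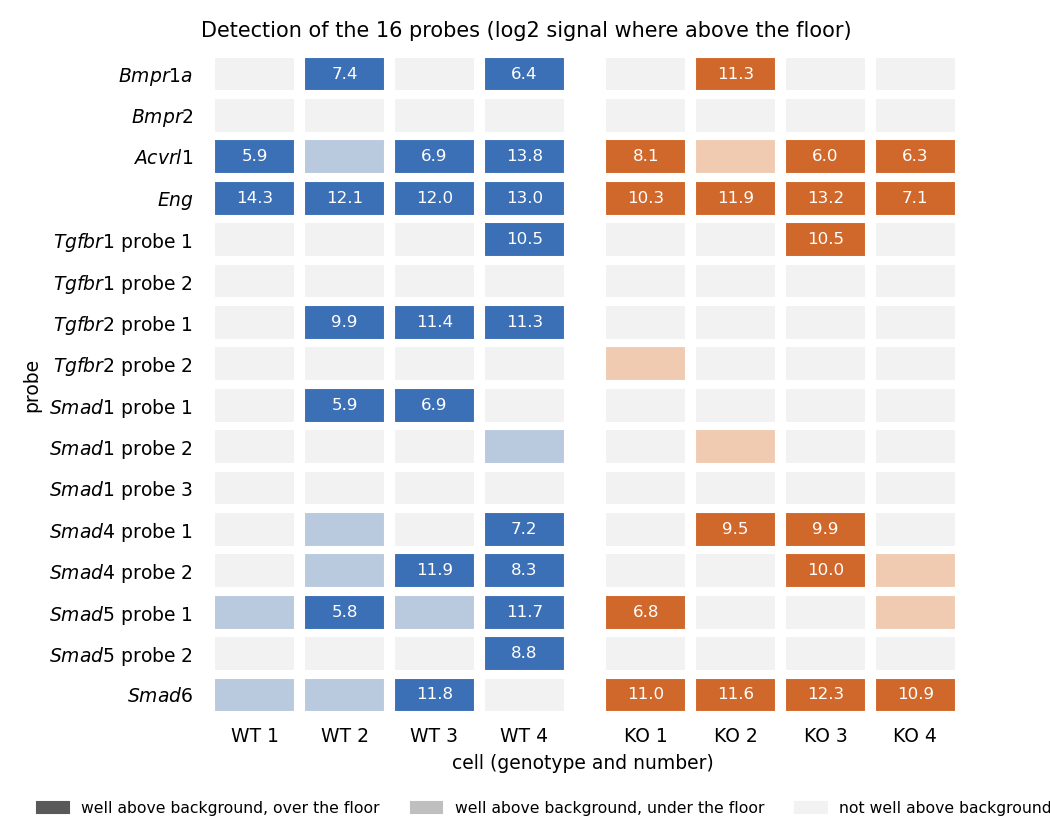
Detection of the 16 probes (rows) in the 4 WT and 4 KO cells (columns), with the log2 scaled signal printed where it was above the floor of 5.64. Pale tiles are probes well above background whose signal was under the floor, and grey tiles are probes not well above background. *Eng* is filled in all 8 cells, *Smad6* in all KO cells and in WT cell 3, and *Tgfbr2* at its first probe in 3 WT cells and no KO cell.

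With 1 probe for each gene, that of the highest mean, 1 of the 10 genes was at least 5-fold higher in KO cells and 1 was at least 5-fold lower. Over all 35560 genes measured these directions held 1.83% and 1.85% of genes, and over the 19142 genes detected in at least 1 cell 3.41% and 3.43%. The gene that was higher was *Smad6* and the gene that was lower was *Tgfbr2*. Of the other 8 genes 1 had a difference above 0, 5 had one below 0, and *Bmpr2* and *Tgfbr1* were at 0.00. The median difference over the 10 genes was -0.76, against 0.00 over all genes. It moved with single cells, being 0.12 without WT cell 4, -0.26 without WT cell 3, -1.12 without WT cell 1 and -1.16 without KO cell 3. It also moved with the processing, from -1.60 with no floor and -1.53 with a floor of 10 to -0.32 with a floor of 200 and -0.06 with the probes of a gene averaged. For none of the 16 probes did the cells of the genotypes separate without overlap. Over all genes 0.647% separated with KO cells higher and 0.141% with KO cells lower, and over the genes detected in at least 1 cell 1.2% and 0.261%.

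**Figure D2:**
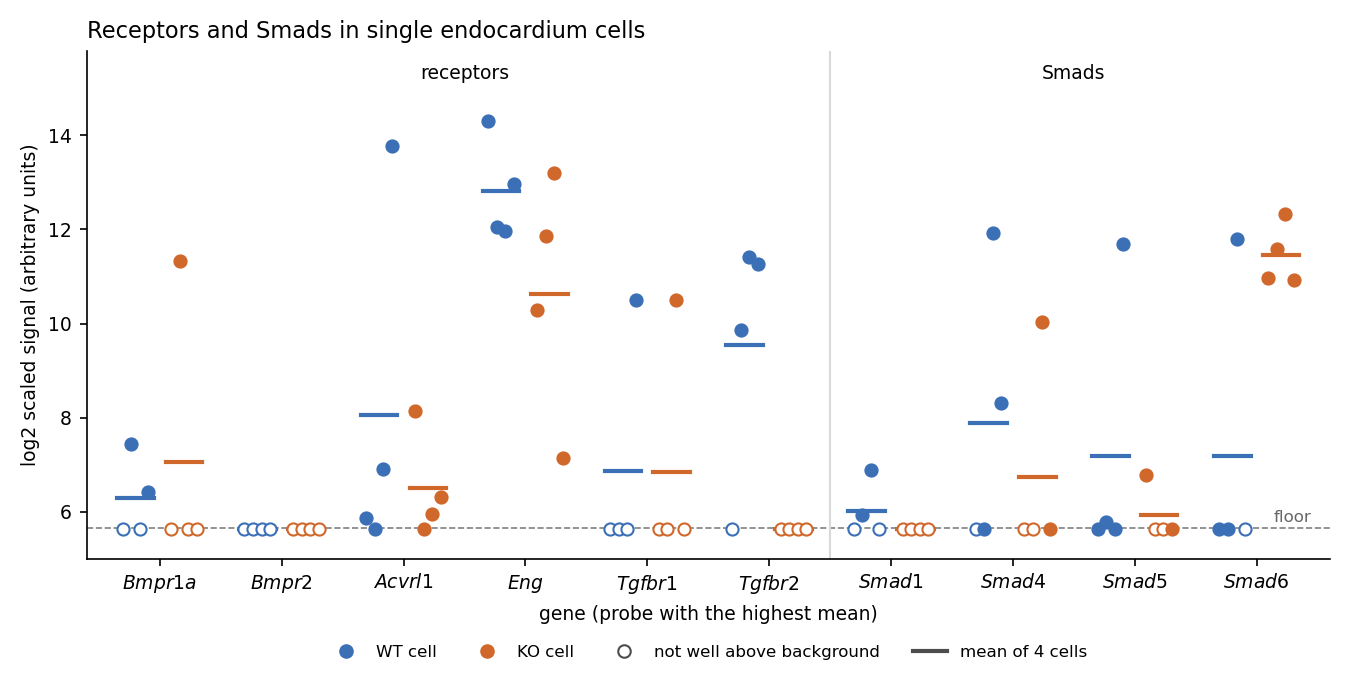
Log2 scaled signal of each gene (y axis, arbitrary units) in each WT (blue) and KO (orange) cell, at the probe with the highest mean. Open circles are cells in which the probe was not well above background, bars are means of 4 cells, and the dashed line is the floor. The 4 KO cells for *Smad6* lie between 10.93 and 12.32, with WT cell 3 at 11.80 among them.

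*Smad6*, which blocks type I receptors and receptor Smads of the BMP branch, was the member that was highest in KO relative to WT cells. It stood at 10.97, 11.58, 12.32 and 10.93 on the log2 scale in KO cells 1 to 4. Of the WT cells, cell 3 was at 11.80 and cells 1, 2 and 4 were at the floor. All KO cells were thus high, and 1 WT cell reached into their range. The difference was 4.27 with an SD between cells of 2.23, and the only probe of *Smad6* was well above background in 3 WT and 4 KO cells. WT cell 1, with a scaled signal of 48.77, lay just under the floor, WT cell 2 was at 8.71, and WT cell 4 was not well above background. Leaving out WT cell 3 raised the difference to 5.83, and leaving out any other cell kept it between 3.66 and 4.47. The size depended on the floor, with 2.77 at a floor of 200 and 6.28 with none. This probe is on the authors' list of transcripts increased in KO endocardium, which was drawn from these same cells, so that the list and the values here are not independent.

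The start of *Smad6* is shown because it was the member that differed most upward and because BMP Smads and SOX proteins bind short known motifs. The sequence runs from 150 bases before the start to 10 bases after it, from RefSeq on GRCm38.p6, on the minus strand of chr9:64022050-64022209, with matches to the motifs ACAAT (the core bound by SOX proteins) and GTCTAGAC (a palindrome bound by Smads) in capitals.
*Smad6* start: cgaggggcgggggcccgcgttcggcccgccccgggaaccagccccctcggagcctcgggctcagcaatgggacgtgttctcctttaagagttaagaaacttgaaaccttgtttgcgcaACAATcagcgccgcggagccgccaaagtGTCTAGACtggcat
The SOX core begins 32 bases before the start, and the Smad palindrome has 4 letters before the start and 4 from the start on. In windows from 250 bases before to 50 bases after the start, searched on both strands, the palindrome was in 0.213% and the SOX core in 31.0% of 32851 promoters. Another Smad motif, GGCGCC, was in 11.9%. Of the members, 8 genes with 11 promoters could be searched, and *Smad6* alone held the palindrome or the SOX core. The other Smad motif was in the promoters of *Bmpr1a*, *Bmpr2*, *Smad5* and *Tgfbr1*. These matches are letters only and show no binding, and the motifs do not overlap each other here.

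*Tgfbr2*, the type II receptor that binds TGF-β, went the other way. Its first probe stood at 9.87, 11.42 and 11.27 in WT cells 2, 3 and 4, and WT cell 1 was at the floor. So were all 4 KO cells, and the probe was well above background in none of them. Every WT cell that was high was above every KO cell, and WT cell 1 tied with the KO cells. The difference was -3.91 (SD between cells 1.91). No KO cell was measured above background, so that the level there is not known. With the floor applied, the difference was 15.0-fold. The lowest signals well above background on the KO arrays, from 6.49 to 17.4, were all under the floor, so that the floor alone set this value. WT cell 1 was set to the floor as well, so that 15.0-fold is not a strict lower bound. Without WT cell 1 the difference was -5.32, without WT cells 3 or 4 -3.33 and -3.24, and with no floor -6.76. The second probe did not show this. It was at the floor in all 8 cells, well above background in KO cell 1 only, and differed by 0.00. With a gene's probes averaged in place of taking the brightest, *Tgfbr2* was no longer 5-fold apart and no member was 5-fold lower.

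*Tgfbr1*, the type I partner of *Tgfbr2*, was above the floor in 1 cell of each genotype. It was at 10.50 in WT cell 4 and at 10.49 in KO cell 3, and the other 6 cells were at the floor. The difference was 0.00, with an SD between cells of 2.43. Its second probe, 2790 bases away, was well above background in no cell. Both receptors of TGF-β were above the floor together only in WT cell 4.

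The pair of receptor genes with an endothelial role was detected in every cell, and both were lower on average in KO cells by less than the SD between cells or little more than it. *Eng*, the coreceptor endoglin, stood at 14.30, 12.06, 11.96 and 12.97 in WT cells 1 to 4. In KO cells 1 to 4 it stood at 10.28, 11.87, 13.20 and 7.14. KO cell 4 was the lowest of all 8 cells and KO cell 3 was above all WT cells but cell 1, so that the genotypes overlapped. KO cell 4 held 8 of the 10 endothelial markers well above background, with *Cdh5* at 12.58 and *Kdr* at 7.76, the lowest *Kdr* value of the 8 cells. In this cell *Tek* was not detected, *Emcn* was under the floor and *Nfatc1* was at 6.35. KO cell 4 also held 8 of the 9 cardiomyocyte markers, as did WT cell 2, and *Acta2* at 12.86. The difference for *Eng* was -2.20 (SD 2.0), just short of 5-fold, which is 2.32 on this scale. It was -1.04 without KO cell 4 and -1.65 without WT cell 1. Other choices took it past 5-fold, to -3.05 without KO cell 3, -2.61 without KO cell 2 and -2.59 with the 75th percentile in the scaling.

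*Acvrl1*, the type I receptor ALK1, stood at 5.86, 6.91 and 13.78 in WT cells 1, 3 and 4, with WT cell 2 at the floor. In KO cells 1, 3 and 4 it stood at 8.13, 5.96 and 6.31, and KO cell 2 was at the floor. WT cell 4 was far above the other 7 cells, which lay between the floor and 8.13. The difference of -1.54 (SD 2.84) turned to 0.36 without that cell.

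The general BMP receptors gave little signal. *Bmpr1a*, a type I receptor, was at 7.44 and 6.42 in WT cells 2 and 4, at 11.33 in KO cell 2, and 5 cells were at the floor. The difference of 0.78 (SD 2.10) rested on KO cell 2 and was -0.69 without it. *Bmpr2*, the main type II receptor, was at the floor and not well above background in all 8 cells, with scaled signals from 1.247 to 10.42. No fold can be given for it.

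**Figure D3:**
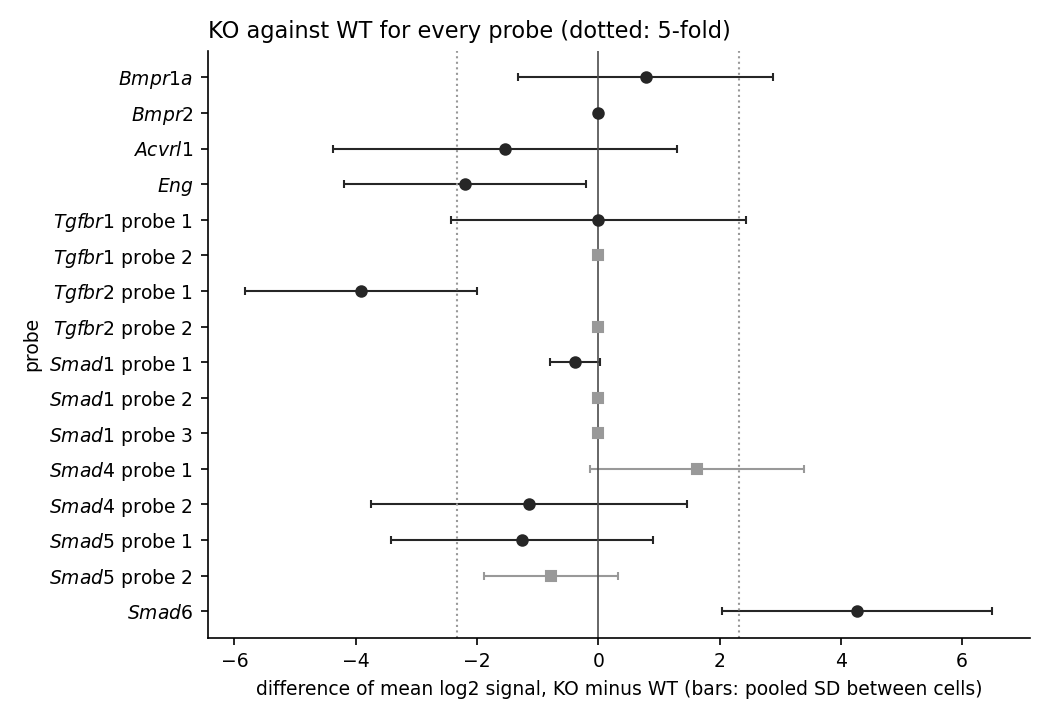
Difference of mean log2 signal, KO minus WT (x axis), for each of the 16 probes, with bars of 1 pooled SD between cells. Black circles are the probe with the highest mean of each gene, grey squares are its other probes, and dotted lines mark 5-fold. *Smad6* at 4.27 and the first *Tgfbr2* probe at -3.91 lie outside the dotted lines, and the pair of *Smad4* probes lies on opposite sides of 0.

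The receptor Smads of the BMP branch were dim. *Smad1* reached 5.92 in WT cell 2 and 6.88 in WT cell 3 at its brightest probe, with the remaining 6 cells at the floor, a difference of -0.38 (SD 0.41). That probe was well above background in no KO cell. With the floor applied, KO cells were 1.3-fold lower, which is not a strict bound, since WT cells 1 and 4 were at the floor too. Of its other probes, 1 was detected in WT cell 4 and KO cell 2 under the floor and 1 in no cell.

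*Smad5* had its highest value in 1 cell. At its brightest probe it was at 11.69 in WT cell 4, 5.79 in WT cell 2 and 6.78 in KO cell 1, while the remaining cells were at the floor. It was well above background in 4 WT and 2 KO cells, and the difference was -1.26 (SD 2.16). The second probe, 4666 bases away, was above the floor in WT cell 4 alone, at 8.78, with a difference of -0.78 (SD 1.11). The probes thus shared their highest cell, with Pearson's r of 0.98 over the 8 cells, where that cell alone was far above the floor at both. Without WT cell 4 the differences were 0.25 and 0.00.

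The probes of *Smad4*, the Smad shared by both branches, did not run together. The brighter probe was at 11.92 and 8.32 in WT cells 3 and 4 and at 10.04 in KO cell 3, and at the floor in the others, a difference of -1.14 (SD 2.61). The other probe, 998 bases away, was at 7.25 in WT cell 4 and at 9.49 and 9.92 in KO cells 2 and 3, a difference of 1.63 (SD 1.76). They were high together in WT cell 4 and KO cell 3, while WT cell 3 and KO cell 2 were high at 1 probe only. Pearson's r over the 8 cells was 0.21, and the direction for *Smad4* depended on the probe. The brighter probe turned to 0.20 without WT cell 3.

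Most cells held only part of a signal chain above the floor, counting any probe of a gene and the related genes that were not among the members. A type I receptor for BMP (*Bmpr1a*, *Acvr1* or *Acvrl1*) was above the floor in all 8 cells. A type II receptor for BMP or activin was so in 2 cells, *Acvr2b* in WT cell 4 and *Acvr2a* with *Acvr2b* in KO cell 2. *Smad1* or *Smad5* was above the floor in 3 WT cells and 1 KO cell, and *Smad2* with *Smad3* in 3 WT cells and 1 KO cell. *Smad4* was above it in 2 cells of each genotype, and *Smad6* in 1 WT and 4 KO cells. WT cell 4, whose array had the most probes well above background (18175), was the only cell with each of these steps but *Smad6* above the floor. It also held the most members there, 7 genes, and WT cell 1 the fewest, only *Acvrl1* and *Eng*.

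The other genes of the pathway were read from a list of 66 genes, of which 42 were detected in at least 1 cell. Of these 66, 3 were at least 5-fold higher in KO cells, 1 was at least 5-fold lower, and the median difference was 0.00. Over all genes these directions held 1.83% and 1.85% of genes, and over the genes detected in at least 1 cell 3.41% and 3.43%. Ligands were mostly out of reach, with 9 of 13 detected in no cell, among them *Bmp4*, *Bmp7*, *Tgfb1* and *Tgfb2*. *Nodal* alone of the ligands was detected in all 8 cells, between the floor and 6.82. No ligand was 5-fold apart.

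Among the 7 other receptors *Acvr1*, the type I receptor ALK2 that endocardium needs for cushion formation, was lower in KO cells. It was at 11.45, 12.87 and 12.36 in WT cells 1, 3 and 4, with WT cell 2 at the floor. Of the KO cells, cell 4 was at 12.77 and cells 1, 2 and 3 were at the floor. The genotypes overlapped at both ends, and the difference of -3.15 was smaller than the SD between cells of 3.46. It was -4.95 without KO cell 4 and -4.71 without WT cell 2, and its second probe differed by -2.55. *Tgfbr3* (betaglycan), detected in all 8 cells, differed by 0.03 (SD 2.82).

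Neither the modulators outside the cell nor the regulators inside it held a gene 5-fold apart. Of 12 extracellular antagonists and modulators, *Ltbp3*, which binds latent TGF-β, and *Chrd* (chordin) were detected in all 8 cells, with differences of 1.31 (SD 0.59) and 0.05 (SD 0.38). For *Ltbp3* WT cell 1 at 7.95 stood apart from the other WT cells, at 6.35 to 6.60, and lay above the lowest KO cell, at 7.62. The other *Ltbp3* probe was at the floor in all 8 cells and well above background in none, so that this difference was seen at 1 probe only. Of 17 intracellular regulators *Hgs*, *Strap* and *Fkbp1a* were detected in every cell, with differences of -0.20 (SD 3.22), -0.56 (SD 1.64) and 0.75 (SD 0.47). *Fkbp1a*, which encodes FKBP12, a protein that binds type I receptors, lay between 13.38 and 14.99 in all cells at its brightest probe. Its other probes ranged from 9.08 to 14.96, with a difference of 1.89 (SD 1.96), and from 7.59 to 12.43, with a difference of -0.59 (SD 1.63), so that both the spread and the direction for *Fkbp1a* depended on the probe. Of the other Smads *Smad2* was at -1.96 (SD 1.26), *Smad3* at -1.09 (SD 2.78) and *Smad7* at 1.0 (SD 1.40), and *Smad9* was detected in no cell.

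The list of 13 target genes held all of the genes of the pathway list that were at least 5-fold higher. This list was chosen with earlier results of these data known, so that its share of such genes is no independent result. Of these targets 8 had a difference above 0, 1 had one below 0, and 4 were at 0.00. Over all 35560 genes 1.83% were at least 5-fold higher. Of all genes 8032 had a difference above 0, 6451 had one below 0, and 21077 were at 0.00. *Id1*, a direct target of BMP Smads that blocks differentiation factors, was at 12.80, 14.44, 11.84 and 11.67 in KO cells 1 to 4. It was at 11.79, 11.37 and 11.63 in WT cells 2 to 4, while WT cell 1 was at the floor. The difference of 2.58 (SD 2.29) fell to 1.15 without WT cell 1, under 5-fold. It was also under 5-fold without KO cell 2, at 2.03, and with several changes of processing. These were the floor set before scaling together with all probes for the percentile (2.03), all probes alone (2.06), a floor of 200 (2.08), quantile normalization (2.09), the 75th percentile (2.19) and normexp (2.2). *Id3* lay between 9.61 and 12.93 in all 8 cells and differed by 0.78 (SD 1.01).

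*Hey1* and *Gata4* were the targets farthest apart at the brightest probe of each gene, and for both the KO cells all lay above the WT cells. Over all genes 0.647% separated in this direction, and over the genes detected in at least 1 cell 1.2%. *Hey1*, a repressor that answers to NOTCH as well as to BMP, was above the floor in WT cell 4 alone of the WT cells, at 8.27, and between 12 and 14.61 in KO cells. The difference was 6.84 (SD 1.26). *Gata4*, a cardiac transcription factor, was at 11.08 in WT cell 3, the WT cell that was high for *Smad6*, and not above the floor in WT cells 1, 2 and 4. It lay between 12.04 and 15.87 in KO cells, with a difference of 6.44 (SD 2.26). Leaving out KO cell 2 gave 5.72 and leaving out WT cell 3 gave 7.83. Both are on the authors' list of increased transcripts, which was chosen on these cells. *Zfpm1*, which encodes FOG1, a partner of GATA factors, differed by 0.77 (SD 2.90) at its brightest probe, where the genotypes overlapped. Another probe differed by 0.74 (SD 2.87), also with overlap, but it covers mostly the same bases and is no separate reading. At the remaining probe *Zfpm1* was at 12, 7.91, 9.13 and 8.43 in KO cells 1 to 4, while all WT cells were at the floor and not well above background. The genotypes did not overlap at that probe, which was at least 13.2-fold higher in KO cells (difference 3.72, SD 1.29), so that the result for *Zfpm1* depended on the probe. *Msx1* and *Msx2* were detected in all 8 cells and differed by -1.56 (SD 2.70) and 1.0 (SD 0.87).

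**Figure D4:**
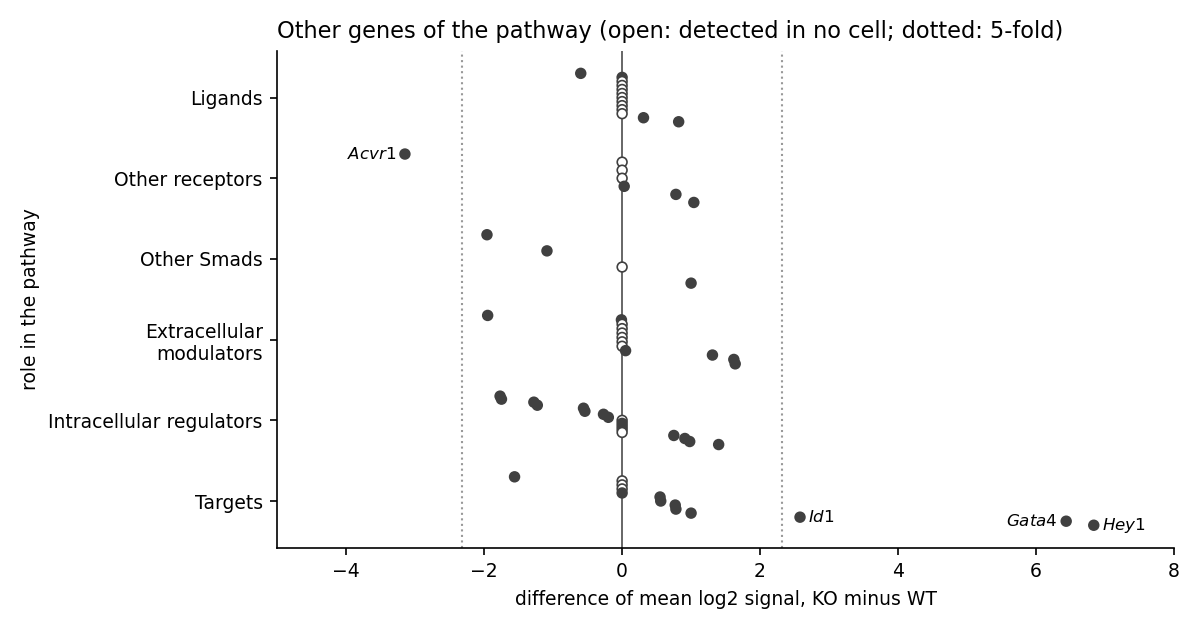
Difference of mean log2 signal, KO minus WT (x axis), for the 66 other genes of the pathway, grouped by role (y axis). Open circles are genes detected in no cell, dotted lines mark 5-fold, and the genes outside them are named. *Hey1* at 6.84, *Gata4* at 6.44 and *Id1* at 2.58 are targets, and *Acvr1* at -3.15 is a receptor.

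Cardiomyocyte transcripts were present beside these genes in cells of both genotypes. The summed scaled signal of the 9 markers was 323.4, 38430, 3226 and 8601 in WT cells 1 to 4. It was 48750, 847.9, 10480 and 31600 in KO cells 1 to 4, so that the genotypes overlapped. *Actc1*, cardiac actin, was above the floor in all 8 cells, from 6.38 to 12.80 in WT and from 9.17 to 15.32 in KO cells. It was the 1 cardiomyocyte marker at least 5-fold apart, with a difference of 2.67 (SD 2.79) and with overlap. *Myl4* reached 14.03 in WT cell 2, *Tnnt2* 13.26 and *Myl7* 12.64 in KO cell 4, while *Myh6* and *Nppa* were at the floor in all 8 cells. The part of the cardiomyocyte transcripts in the differences above was not tested.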

How the data were processed

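The authors deposited scanner software files, 1 per cell, in which Agilent Feature Extraction (version 12.0.2.2, design 028005) had placed the probes on mm9. Its intensity values, as deposited, were corrected for background and for trends within an array only, and the GeneSpring normalization of the methods had not been applied. Control and outlier spots were dropped and spots of the same probe averaged, which left 55295 of 55681 probes, with all 16 member probes among them. No usable spot was saturated. A probe counted as well above background where this flag held for over 50% of its usable spots. For scaling, the arrays were brought to 1 common 50th percentile, taken over the 7570 probes detected on all 8 arrays. A floor of 50 was then set and log2 values were formed. Depth is given as the count of detected probes, and no difference can be more precise than 8 arrays allow.

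Where a gene had several probes, the one with the highest mean stands for it. Members were named as in the files, and 28131 probes through their accession in RefSeq (GRCm38.p6). Where a probe was well above background in no cell of 1 genotype, a fold was given with the floor applied. It is a bound only where all cells of the other genotype were above the floor. The members, the pathway and marker lists, the settings and the alternatives were chosen with earlier results of these data known. Named genes are all members and, from the pathway list, genes at least 5-fold apart and detected in at least 3 cells of the brighter genotype, or detected in all 8 cells. Other pathway genes and markers were named after their values were seen.

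Alternatives changed the percentile to the 75th or took it over all probes, alone or with the floor set before scaling, or used floors of 10 or 200. Others used quantile normalization, normexp with an offset of 50, the mean of a gene's probes, only probes detected in at least 1 cell, or a looser detection call, and each cell was left out once. A setting with no floor was chosen after seeing the data. The steps were tested on simulated data. Promoter windows came from RefSeq, and *Acvrl1* and *Smad4* were not searched. The work was done in Python 3.11.15 (numpy 2.4.6, pandas 2.3.3, matplotlib 3.10.9), with R 4.3.3 and limma 3.58.1 for normexp.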

Additional observations from a re-analysis of the deposited data

Results flagged for a closer look

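For the 4 cells of a genotype, the distance of the outermost cell from its neighbour was divided by their range and set against Dixon's critical value for 4 samples. Of 62 groups of values 19 passed, where a rate of 1 in 20 would give 3.1. The 62 include groups with all 4 cells at the floor, which could not pass. The rate also makes no allowance for values set to a floor, so that 3.1 is not the number expected here. In 14 of the 19 groups 3 cells were at the floor, which makes the ratio 1.0 whenever the remaining cell rises above it. For the WT cells these were *Tgfbr1*, *Hey1* and the dimmer probes of *Smad4* and *Smad5*, each with WT cell 4 as the high cell, *Smad6* and *Gata4*, with WT cell 3, and *Nodal*, *Chrd* and *Msx2*, with WT cell 1. For the KO cells they were *Bmpr1a* with KO cell 2 as the high cell, *Tgfbr1* and the brighter probe of *Smad4* with KO cell 3, the brighter probe of *Smad5* with KO cell 1, and *Acvr1* with KO cell 4.

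In the other 5 groups fewer than 3 cells were at the floor. *Acvrl1* (ratio 0.844) and the brighter probe of *Smad5* (0.975) were far higher in WT cell 4 than in the other WT cells. *Ltbp3* (0.844) was higher and *Id1* (0.932) lower in WT cell 1 than in WT cells 2 to 4. The number of member genes detected was 6 in KO cell 2 and 5 in the other KO cells, a ratio of 1.0 that a step of 1 gene gives. The cause of these gaps was not tested.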

How the results depend on the processing

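No paired analysis was possible because no result comes from a test and the numbers in the sample titles name cells only. Of 378 values set against their main setting, 340 stayed within the spread between cells or within 1.5 times a count, and 38 moved. A change of sign was scored only where the main difference was at least 5-fold, among probes for *Smad6* and *Tgfbr2* alone, and 0 were found. Smaller differences changed sign within the spread, *Bmpr1a* to -0.69, *Acvrl1* to 0.36, and the brighter probes of *Smad5* and *Smad4* to 0.25 and 0.20, each without 1 cell. The setting with only probes detected in at least 1 cell leaves the value of each probe as it was. *Smad6* was 5-fold higher under all alternatives, from 2.77 to 6.28, and from 3.66 to 5.83 with each cell left out. It has 1 probe only, so that averaging a gene's probes could not change its value. *Tgfbr2* ran from -6.76 with no floor to -2.41 with a floor of 200, and from -5.32 to -3.24 with each cell left out. The number of members at least 5-fold lower was 0 with the mean of all probes, where *Tgfbr2* dropped out. It was 2 with the 75th percentile, with all probes for the percentile, and with all probes and the floor set before scaling together, where *Eng* was added, and 2 with no floor, where *Smad5* was. With each cell left out it ran from 1 to 2, with *Eng* added without WT cell 2, WT cell 3, KO cell 2 or KO cell 3. Of the other pathway genes, the number at least 5-fold lower was 3 with all probes for the percentile, alone or together with the floor set before scaling, and with a floor of 10, 0 with a floor of 200 and 5 with no floor, and ran from 1 to 4 with each cell left out. The number at least 5-fold higher, 3 in the main setting, was 8 with no floor and 2 with the 75th percentile, all probes for the percentile (alone or with the floor first), quantile normalization, normexp or a floor of 200, where *Id1* dropped out, and ran from 2 to 3 with each cell left out. With the looser call of a positive and significant signal, 79 in place of 52 pairs of a probe and a cell were detected, 39 in WT and 40 in KO cells. Over the genes detected in at least 1 cell, 652 were at least 5-fold higher and 657 at least 5-fold lower in the main setting. These counts were 1849 and 1652 with no floor, 1181 and 1223 with a floor of 10, and 319 and 237 with a floor of 200. They were 518 and 798 with the 75th percentile, 509 and 750 with all probes for the percentile, and 600 and 682 with quantile normalization. With each cell left out they ran from 596 to 948 and from 685 to 1063, the last without WT cell 1. Of the probes detected on an array, the floor hid 30.4% to 44.9%. The cause of these shifts was not tested, apart from that which the change of probe, floor or cell itself makes.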
